A study of Mus musculus with 2 samples.

Results

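Neuregulin ligands and ErbB receptors were described cell by cell in sympathetic ganglia of the mouse abdomen, the celiac and the superior mesenteric ganglion, which supply the stomach, intestine, liver, pancreas and spleen. The 7 genes, Nrg1, Nrg2, Nrg3, Egfr, Erbb2, Erbb3 and Erbb4, were taken by name from the 32183 genes of the count tables, and all 7 were present there. The series holds 2 libraries of 1 group, labelled CGSMG1 and CGSMG2 and called library 1 and library 2 here, with no treatment, mutant allele or control group. The mice were 7 to 8 weeks old, and the series used 20 of them with as many females as males. The sources used here give neither their strain nor which animals entered which library. The ganglia were digested and triturated, and RNA was captured with 10x Genomics 3' v3.1 chemistry, so each count is 1 unique molecular identifier (UMI) read near the 3' end of a transcript. With no second group, cell populations of the same suspensions were compared with each other. The p-values rest on how much the differences between populations varied across these 2 libraries, which may be technical. Much or all of that spread was pooled over genes.

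Neuregulins are growth factors with an EGF-like domain, mostly made as membrane proteins that proteases cut and release. They bind ErbB3 or ErbB4, which then pair with ErbB2, a receptor with no known ligand of its own. ErbB3 has little kinase activity and signals through its partner, while the EGF receptor (Egfr) binds EGF, TGF-alpha and related ligands in place of neuregulins. In mouse peripheral nerve, Nrg1 on axons acts through ErbB2 and ErbB3 on Schwann cells and is known for its control of their survival and myelination.

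RefSeq promoters (assembly GRCm38.p6) were matched by symbol for 4 of the 7 genes. The 250 bases before the start are shown for the ligand gene Nrg3, highest in neurons (chr14:39473089-39473338, minus strand) and for the receptor gene Egfr, highest in fibroblasts (chr11:16751953-16752202, plus strand). They are printed 5′ to 3′ with each CG dinucleotide in capitals.
Nrg3: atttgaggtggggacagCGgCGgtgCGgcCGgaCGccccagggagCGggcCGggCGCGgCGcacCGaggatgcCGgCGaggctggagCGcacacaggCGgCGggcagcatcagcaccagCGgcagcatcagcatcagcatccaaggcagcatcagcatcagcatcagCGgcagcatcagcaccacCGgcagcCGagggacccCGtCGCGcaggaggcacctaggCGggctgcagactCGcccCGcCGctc
Egfr: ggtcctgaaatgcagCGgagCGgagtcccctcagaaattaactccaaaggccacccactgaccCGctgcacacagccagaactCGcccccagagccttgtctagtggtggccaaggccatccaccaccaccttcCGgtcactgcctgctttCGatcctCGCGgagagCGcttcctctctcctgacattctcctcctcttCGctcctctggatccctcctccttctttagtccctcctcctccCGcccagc
The Nrg3 window held 27 CG dinucleotides and 72.4% G or C, and the Egfr window held 11 and 60.8%. The median over the 32851 RefSeq promoter windows of the same length was 6 CG dinucleotides. The GC box (GGGCGG on either strand) was found once in the Egfr window and not in the Nrg3 window, and 32.7% of all windows hold it. The TATA box (TATAAA, on either strand) was in neither window, and 12.4% of all windows hold it.

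The genes lie far apart in the genome (GENCODE M21 on GRCm38, the assembly also called mm10). Nrg1 is on chromosome 8 from 31814551 to 32884029, Nrg2 on chromosome 18 from 36017652 to 36197380 and Nrg3 on chromosome 14 from 38368952 to 39473088. Egfr is on chromosome 11 from 16752203 to 16918158, and Erbb2 is on the same chromosome from 98412470 to 98437716. Erbb3 is on chromosome 10 from 128567523 to 128589652 and Erbb4 on chromosome 1 from 68032186 to 69108059. Nrg1, Nrg3 and Erbb4 are the longest, at 1069 kb, 1104 kb and 1076 kb, against 22.1 kb for Erbb3 and 25.2 kb for Erbb2. The annotation gives Nrg1 12 coding transcripts, and counts of 3' ends per gene do not tell its membrane-bound and secreted forms apart.

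Library 1 held 94521010 UMIs and library 2 held 95235439 UMIs, with medians of 6483 and 6498 UMIs per barcode. The libraries share 64 barcode sequences. After removal of likely doublets, 12033 and 11640 cells were sorted into 26 clusters and named by marker genes, and names here mean cells like those types by markers. In each of 13 named classes the summed marker level lay above that of all other cells, with no marker at 0. In satellite glia 7 of 9 markers were higher than in all other cells, and in the other 12 classes every marker was. A glial cluster of 2238 cells that markers did not assign to satellite glia or to Schwann cells is called undivided glia, and a cluster of 94 cells led by Nt5c1a, Disp2 and Slc6a2 stayed unnamed. Among the 1690 neurons, 2 deep clusters were set against each other by Shox2, a homeobox transcription factor gene, and Rxfp1, the relaxin receptor gene, and are called Shox2-rich (114 cells) and Rxfp1-rich (141 cells) after that contrast. In the UMIs used for clustering, Shox2 had 111 and 78.4 CPM in Shox2-rich neurons, against 5.93 and 12.8 CPM in Rxfp1-rich neurons. Shox2 does not set the Shox2-rich neurons apart from all other neurons, since the largest neuron cluster, of 707 shallow cells, had 105 and 156 CPM. Rxfp1 had 64.1 and 62.1 CPM in Shox2-rich neurons, against 366 and 312 CPM in Rxfp1-rich neurons. Levels are in CPM: the UMIs not used for clustering, summed over a population in 1 library and scaled to a total of 1000000.

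**Figure D1:**
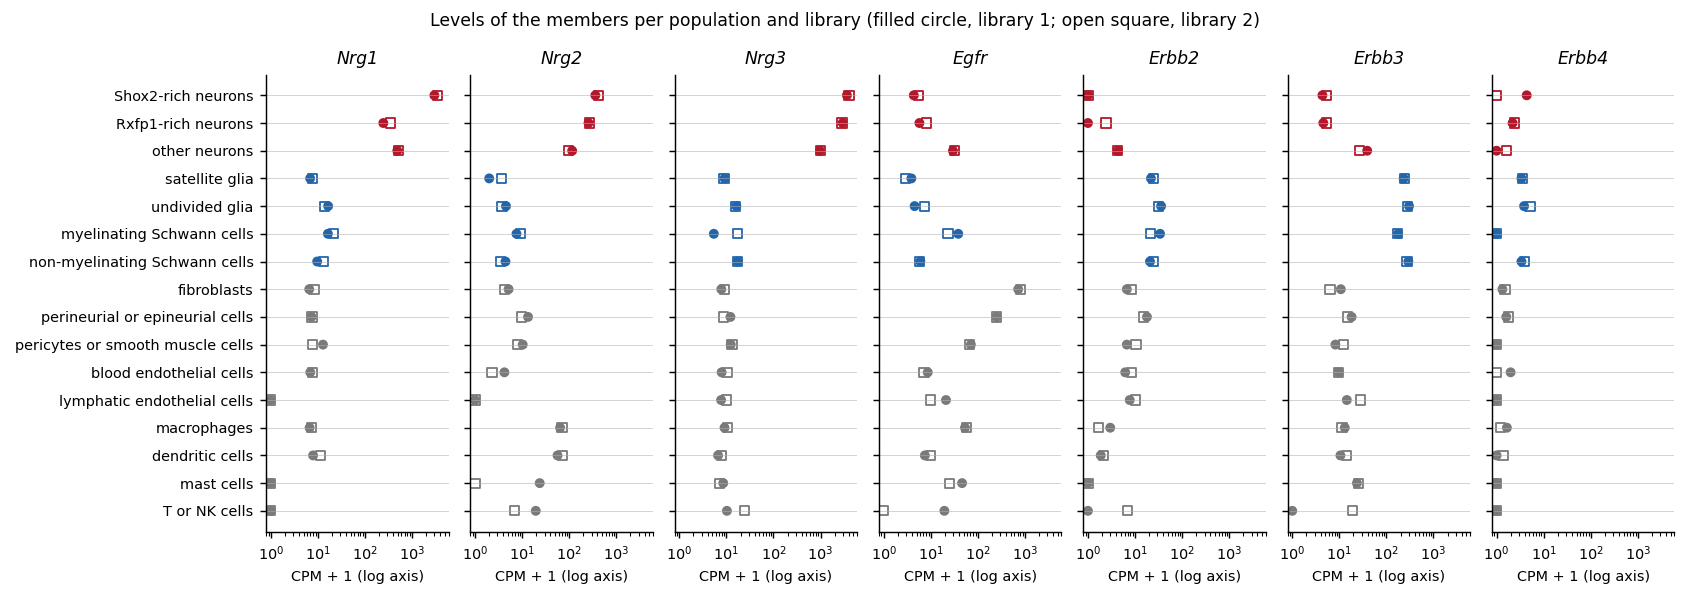
Levels of the 7 genes (horizontal axis, CPM + 1, log scale) in 16 populations (rows), with a filled circle for library 1 and an open square for library 2; neurons are red, glia blue and other cells grey. Neuregulins stand highest in neurons, Erbb3 in glia and Egfr in fibroblasts, where it was 721 and 813 CPM.

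All 3 neuregulin genes were higher in neurons than in the other named cells. Nrg1, the ligand best known from Schwann cell biology, had 885 and 1155 CPM in neurons, against 7.18 and 8.10 CPM in other cells. Of the neuronal Nrg1 UMIs, 1779 of 2871 and 2330 of 3371 came from the Shox2-rich neurons, 57 cells per library. Nrg3, a ligand of ErbB4, had 1970 and 2146 CPM in neurons, against 9.19 and 9.74 CPM in other cells. Nrg2, a ligand of ErbB3 and ErbB4, had 196 and 213 CPM in neurons, against 13.9 and 15.4 CPM in other cells. The libraries of the neurons lay far above those of the other cells for each of these genes. In the quasi-likelihood test of edgeR, fitted over all genes with the library as a block and with Benjamini-Hochberg adjustment, the log2 fold change was 6.93 for Nrg1 (SE 0.0972, adjusted p = 8.19e-09). It was 7.64 for Nrg3 (SE 0.0789, adjusted p = 5.58e-09) and 3.68 for Nrg2 (SE 0.0659, adjusted p = 1.56e-08) in the same edgeR fit.

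The receptor genes ran the other way in this comparison. Egfr had 17.9 and 18.8 CPM in neurons, against 194 and 224 CPM in other cells (log2 fold change -3.63, SE 0.0804). Erbb2 had 1.85 and 2.06 CPM in neurons, against 12.4 and 13.2 CPM in other cells (log2 fold change -2.84, SE 0.274), and its neuronal level rested on 6 UMIs per library. Erbb3 had 22.8 and 15.4 CPM in neurons, against 102 and 99.4 CPM in other cells (log2 fold change -2.52, SE 0.121). All 3 passed the edgeR test, with adjusted p of at most 6.16e-05. Erbb4 had 0.924 and 0.685 CPM in neurons, against 1.18 and 1.26 CPM in other cells, and did not pass (edgeR, adjusted p = 0.305). With each cell thinned to 1000 UMIs it did (edgeR adjusted p = 0.0498). Thus 3 genes were higher, 3 lower and 1 not separated, in a comparison that called 68.7% of all genes, 31.9% higher and 36.8% lower. Against the same other cells, the Shox2-rich and Rxfp1-rich neurons alone gave log2 fold changes of -5.62 for Egfr, -5.37 for Erbb2 and -4.92 for Erbb3.

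Neurons were not uniform in Erbb3. Shox2-rich neurons had 3.37 and 4.44 CPM, Rxfp1-rich neurons had 3.57 and 4.26 CPM, and the remaining neurons had 38.1 and 25.3 CPM. Among the remaining neurons, the 105 cells of a cluster led by Fabp7 and Postn had 221 and 153 CPM of Erbb3, from 12 and 10 UMIs. A cluster of 91 cells led by Stard13, Fign and Plce1 had 73.8 and 29.3 CPM, from 39 and 12 UMIs. The largest neuron cluster, of 707 cells, had 37.0 and 28.8 CPM, from 13 and 10 UMIs. In the cluster led by Fabp7 and Postn the 29 glial marker genes summed to 26580 and 34433 CPM. They summed to 2711 and 2845 CPM in Shox2-rich neurons and 43426 and 42358 CPM in satellite glia. Macrophages reached 25940 and 25820 CPM of these markers, with 12.1 and 10.4 CPM of Erbb3. The list includes Apoe, and which of the 29 genes carried the macrophage sum was not tested. The part of glial RNA in the neuronal Erbb3 level was not tested.

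Nrg1 set Shox2-rich neurons apart from Rxfp1-rich neurons, whereas Nrg2 and Nrg3 differed little between them. Nrg1 had 2998 and 3447 CPM in Shox2-rich neurons, against 246 and 345 CPM in Rxfp1-rich neurons. Nrg2 had 359 and 417 CPM in Shox2-rich neurons, against 257 and 268 CPM in Rxfp1-rich neurons. Nrg3 had 3635 and 4020 CPM in Shox2-rich neurons, against 2944 and 2846 CPM in Rxfp1-rich neurons. For each of the 3 genes the lower library of the Shox2-rich neurons lay above the higher library of the Rxfp1-rich neurons. The log2 fold change was 3.42 for Nrg1 (SE 0.118, edgeR adjusted p = 2.41e-173), a ratio of 10.7. It was 0.52 for Nrg2 (SE 0.135, edgeR adjusted p = 0.00168) and 0.36 for Nrg3 (SE 0.0976, edgeR adjusted p = 0.00313). These are 3 calls of 3 genes tested, while the comparison called 11.4% of all genes, 5.18% higher and 6.18% lower. The prior degrees of freedom of this fit were infinite, so each p-value used the spread pooled over genes and not that of the gene itself.

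The size of the Nrg1 difference depended on how the neurons were clustered, and Nrg1 was itself among the leading genes of the Shox2-rich cluster. With the ErbB genes left out of the clustering, the populations changed to 77 Shox2-rich and 185 Rxfp1-rich neurons, from 114 and 141. Between these changed populations the log2 fold change of Nrg1 was 2.47 (edgeR adjusted p = 1.14e-92). With DESeq2 in place of edgeR, Nrg1 stayed past the threshold at 3.42 (adjusted p = 1.37e-67), while Nrg2 (adjusted p = 0.716) and Nrg3 (adjusted p = 0.543) did not pass. With each cell thinned to 1000 UMIs, Nrg1 was at 2.99 and again the only gene of the family that passed. The 4 receptor genes had at most 5 UMIs per library in either population and were not tested. Erbb2 had no tested UMI in Shox2-rich neurons, where a count of 0 allows up to 5.06 and 4.44 CPM.

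Single neurons showed the same order, here over all UMIs, including those that formed the clusters. In Shox2-rich neurons the lowest, median and highest Nrg1 values were 4.87, 27.2 and 69.6 UMIs per 10000 in library 1 and 2.76, 35.7 and 84.4 in library 2. In Rxfp1-rich neurons they were 0, 2.10 and 14.8 in library 1 and 0, 1.95 and 29.96 in library 2. The 2 populations overlapped at their edges, and both medians of the Shox2-rich neurons lay above the 90th percentiles of the Rxfp1-rich neurons, which were 5.84 and 9.88. Nrg3 medians were 31.4 and 38.6 in Shox2-rich neurons, against 28.7 and 27.3 in Rxfp1-rich neurons, and the cells of both populations covered much the same range.

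**Figure D2:**
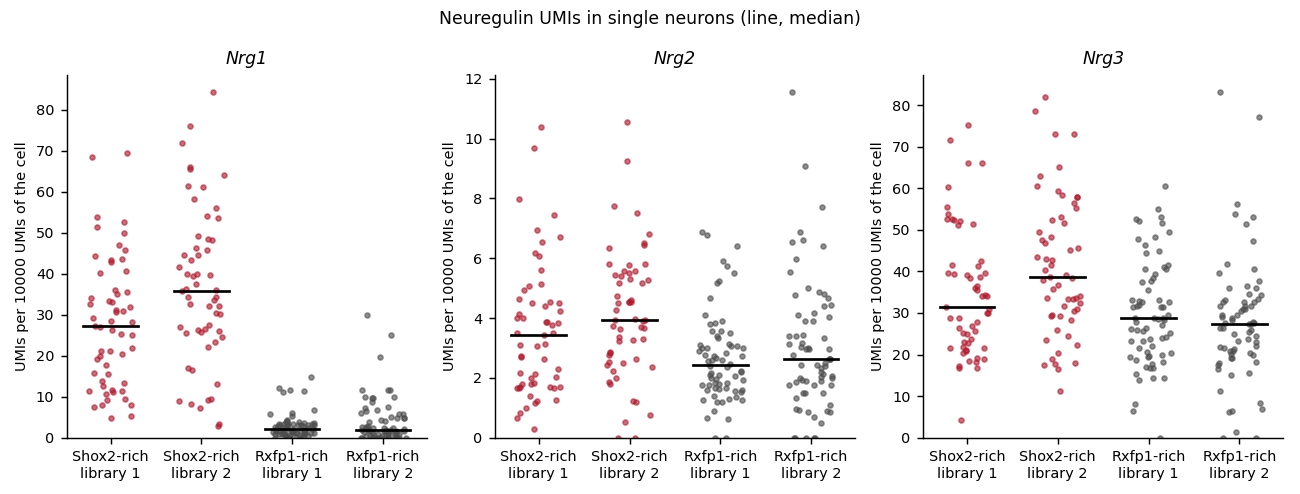
Neuregulin UMIs per 10000 UMIs of a cell (vertical axis) in each Shox2-rich neuron (57 per library) and each Rxfp1-rich neuron (70 and 71), with lines at the medians. Nrg1 medians were 27.2 and 35.7 in Shox2-rich neurons, against 2.10 and 1.95 in Rxfp1-rich neurons, while the Nrg2 and Nrg3 clouds overlap widely.

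All 57 Shox2-rich neurons of each library held at least 1 UMI of Nrg1 and at least 1 of Nrg3. In Rxfp1-rich neurons, 64 of 70 and 58 of 71 cells held an Nrg1 UMI, which is 91.4% and 81.7%. In the remaining neurons, which had median depths of only 2114 and 2091 UMIs, the share was 26.1% and 23.3%. In satellite glia, cells set here as a background for Nrg1, the share was 4.91% and 5.45%. Median depths were 18209 and 23529 UMIs in the Shox2-rich cells, 23071 and 20438 in the Rxfp1-rich cells and 8488 and 8590 in satellite glia. Thinned to 1000 UMIs per cell, the Nrg1 share was 78.9% and 94.7% in the Shox2-rich cells and 25.7% and 29.6% in the Rxfp1-rich cells. It was 13.5% and 10.2% in the remaining neurons and 0.481% and 1.08% in satellite glia.

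Across neuron clusters, neuregulin levels stood broadly higher where Malat1, a long noncoding RNA kept in the nucleus, was higher. The 707 cells of the largest neuron cluster had a median of 1789 UMIs and low Malat1 levels, 4550 and 4051 CPM. Nrg1 was 68.4 and 46.1 CPM there, and Nrg3 was 62.7 and 77.8 CPM. A second cluster of 381 cells, with 6508 and 9047 CPM of Malat1, had 98.4 and 138 CPM of Nrg1 and 383 and 419 CPM of Nrg3. The Shox2-rich cluster had 73322 and 74648 CPM of Malat1 and the Rxfp1-rich cluster had 81448 and 80301 CPM, so these 2 were close in Malat1 and far apart in Nrg1. A deep cluster of 91 neurons led by Stard13, Fign and Plce1, which fell in neither population, with 64108 and 66545 CPM of Malat1, had 1158 and 1347 CPM of Nrg1 and 2235 and 2212 CPM of Nrg3. As in the Shox2-rich and Rxfp1-rich clusters, none of the neuron markers was among the 30 leading genes of this cluster. Its glial markers summed to 10272 and 8045 CPM, against 2711 and 2845 CPM in Shox2-rich neurons, and Pdgfra, a fibroblast marker, was at 22.7 and 53.8 CPM. It also held 37 of the 58 and 36 of the 55 Egfr UMIs of all neurons, and the part of RNA from other cells in its levels was not tested. The sources used here do not say whether intronic reads were counted, and the part of nuclear RNA in these levels was not tested.

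**Figure D3:**
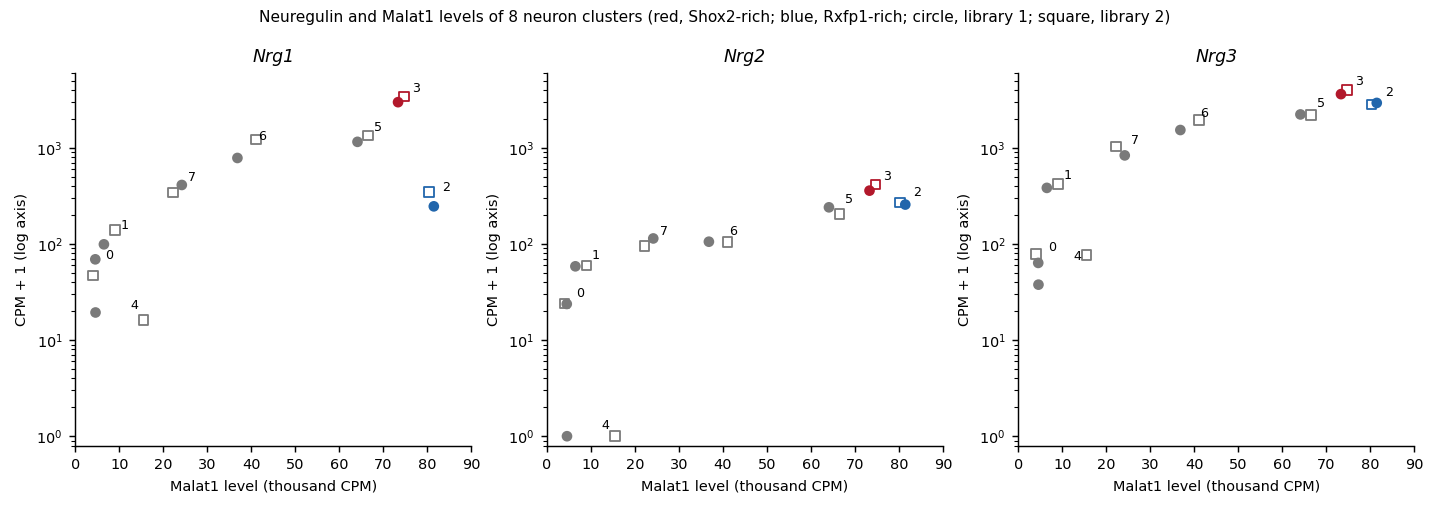
Levels of the neuregulins (vertical axis, CPM + 1, log scale) against Malat1 (horizontal axis, CPM divided by 1000) in 8 neuron clusters, numbered, with circles for library 1 and squares for library 2. The Shox2-rich cluster is red and the Rxfp1-rich cluster blue. Neuregulin levels stand broadly higher in clusters with more Malat1, and the Rxfp1-rich cluster lies off this order for Nrg1, at 246 and 345 CPM. A cluster of 11 cells found in library 1 alone is left out.

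Outside neurons, Nrg1 stayed between 0 and 20.4 CPM and Nrg3 between 4.41 and 23.6 CPM in 13 populations. Dbh, which encodes the enzyme that makes noradrenaline and marks these neurons, was also found in every one of them, for example at 169 and 179 CPM in satellite glia. In the 10 populations with over 100 cells per library, Nrg3 had 0.0126 to 0.0670 UMIs per Dbh UMI, and Nrg1 had 0.0270 to 0.0700. Neurons outside both populations had 0.878 and 0.791 Nrg3 UMIs per Dbh UMI. They were unlike in this, since the 707 cells of the largest neuron cluster had 22 Nrg3 UMIs beside 490 Dbh UMIs in library 1 and 27 beside 527 in library 2, a ratio within the non-neuronal range. Shox2-rich neurons had 7.90 and 9.92. No expression is read from the low levels of Nrg1 and Nrg3 in non-neuronal cells. In T or NK, mast and lymphatic endothelial cells Nrg1 had no tested UMI, where a count of 0 allows 17.7 to 27.8 CPM.

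Nrg2 was the neuregulin gene with a level outside neurons that varied between cell types. Macrophages had 63.2 and 69.8 CPM and dendritic cells had 55.6 and 72.4 CPM, and these 2 classes overlapped. Both lay above T or NK cells, with 18.5 and 5.91 CPM. The summed neurons outside the Shox2-rich and Rxfp1-rich populations lay above both, with 115 and 97.5 CPM, but were not uniform. The 707 cells of the largest neuron cluster had 22.8 and 23.0 CPM, and a cluster of 381 cells had 57.7 and 58.8 CPM. These 2 neuron clusters lay below macrophages, while the deep neuron cluster of 91 cells had 240 and 205 CPM. Within dendritic cells, a cluster led by Wdfy4, Irf8 and Xcr1 had 85.1 and 114 CPM, and a cluster led by Retnla and Cd209a had 28.4 and 26.9 CPM. Of the macrophages, 124 cells led by Cd209f, Folr2 and Lyve1 had 135 and 119 CPM, and the other 2102, led by Ccl12 and C1qa, had 59.3 and 66.8 CPM. At least 1 Nrg2 UMI was seen in 25.4% and 27.4% of macrophages, against 1.17% and 1.65% of satellite glia at similar median depths of 7882 and 7894 against 8488 and 8590 UMIs.

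Erbb3, the neuregulin receptor that needs a partner, was the receptor gene of the glia. It had 258 and 257 CPM in all glia, against 12.1 and 9.74 CPM in non-glial cells, a log2 fold change of 4.67 (SE 0.0539). Erbb2, that partner, had 23.5 and 25.1 CPM in glia, against 5.47 and 5.90 CPM in non-glial cells (log2 fold change 2.21, SE 0.0993). Both passed the edgeR test, with adjusted p under that of Erbb4, which was 7.54e-15. The prior degrees of freedom were infinite in this fit too. Erbb4 rested on 36 and 42 UMIs in glia, against 15 and 11 UMIs in non-glial cells (2.39 and 2.85 CPM, against 0.519 and 0.384 CPM). The neuregulins and Egfr were lower in glia than in non-glial cells, by log2 fold changes of -3.51 for Nrg1, -3.92 for Nrg2, -4.20 for Nrg3 and -5.94 for Egfr. All 7 genes passed in a comparison that called 77.6% of all genes, 38.4% higher and 39.1% lower. Once neurons were left out of the non-glial cells, Nrg1 and Nrg3 turned round and both were 0.48 log2 units higher in glia (edgeR adjusted p = 0.000235 and 4.14e-05). Dbh was 169 to 350.4 CPM in the glial populations and 147 to 370.3 CPM in the remaining non-neuronal ones, and its part in this was not tested.

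The unnamed cluster had 254 and 203 CPM of Erbb3. Among glial populations the order of Erbb3 ran from undivided glia with 302 and 284 CPM to non-myelinating Schwann cells with 291 and 272 CPM, which overlapped them. Satellite glia followed with 232 and 245 CPM and myelinating Schwann cells with 176 and 171 CPM, each separate from its neighbour. Erbb2 did not order them, since undivided glia (34.8 and 31.1 CPM), myelinating Schwann cells (33.1 and 20.4 CPM) and satellite glia (20.8 and 23.8 CPM) overlapped in turn, as did non-myelinating Schwann cells (19.8 and 23.5 CPM). Perineurial or epineurial cells came next, with 16.9 and 14.2 CPM of Erbb2. Mien1 overlaps Erbb2 on the other strand and had 7065 tested UMIs against 1131 of Erbb2, and since the sources used here do not state strand use, Erbb2 levels are uncertain.

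Satellite glia, which wrap neuronal cell bodies, and non-myelinating Schwann cells, which ensheath small axons, differed little. Erbb3 was 0.13 log2 units lower in satellite glia (SE 0.0468, edgeR adjusted p = 0.0242). Egfr had 2.88 and 1.97 CPM in satellite glia, against 5.01 and 4.85 CPM in non-myelinating Schwann cells (log2 fold change -0.90, edgeR adjusted p = 0.0218). Pdgfra moved alongside, with 1.75 and 2.75 CPM in satellite glia, against 5.81 and 3.24 CPM in non-myelinating Schwann cells, and its part was not tested. Nrg3 was 0.91 lower and Nrg1 0.59 lower, and Dbh moved with them, with 169 and 179 CPM in satellite glia against 301 and 299 CPM in non-myelinating Schwann cells, the part of which was not tested. Nrg2, Erbb2 and Erbb4 did not pass, although Erbb2 did with all UMIs counted (log2 fold change 0.27, edgeR adjusted p = 0.0135). These 4 calls of 7 stand beside 43.5% of all genes called, 22.4% higher and 21.1% lower. The prior degrees of freedom of this fit were 63.7, beside 1 residual one, so most of the spread was pooled over genes. Of all calls 51.5% were higher, and 34.8% with scaling by library totals. With DESeq2, 0 of 7 passed after adjustment and 1 had an unadjusted p under 0.05. With no filter on low counts, with thinned cells or with 1 fit over all classes, Nrg3 alone was called.

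Myelinating Schwann cells differed from non-myelinating ones in Erbb3 and Egfr. Erbb3 had 176 and 171 CPM in myelinating cells, against 291 and 272 CPM in non-myelinating cells (log2 fold change -0.69, SE 0.110, edgeR adjusted p = 3.75e-04). Egfr had 37.5 and 22.4 CPM in myelinating cells, against 5.01 and 4.85 CPM in non-myelinating cells (log2 fold change 2.58, SE 0.398, edgeR adjusted p = 3.00e-04). The Egfr level of myelinating cells rested on 17 and 11 tested UMIs, and in all UMIs only 8 of 194 and 11 of 212 cells held any. Without library 1, the log2 difference was 1.999. Nrg1, Nrg2, Nrg3 and Erbb2 did not pass, although Nrg1 did with all UMIs counted (log2 fold change 0.86, edgeR adjusted p = 0.0196), and Erbb4, with no tested UMI in myelinating cells, was not tested. The comparison called 21.4% of all genes, 11.2% higher and 10.2% lower. With clusters formed without the ErbB genes, or with thinned cells, Egfr did not pass the low-count filter and Erbb3 alone was called.

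Transcripts of Erbb2 and Erbb3 were found in the same glial cells. In satellite glia, 275 of 1873 and 284 of 1760 cells held both, which is 14.7% and 16.1%. In myelinating Schwann cells the share was 6.19% and 6.604%, and in non-myelinating Schwann cells 6.46% and 7.18%. In fibroblasts it was 0.571% and 0.174%. These shares follow depth as well as level: at least 1 Erbb3 UMI was seen in 81.0% and 79.3% of satellite glia and in 66.8% and 65.4% of non-myelinating Schwann cells, whose median depth was 3852 and 3800 UMIs. After thinning, the Erbb3 share was 21.6% and 21.5% in satellite glia and 25.6% and 23.1% in non-myelinating Schwann cells, so no order is read from it.

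Erbb4, the receptor that binds Nrg3 and the only neuregulin receptor with both a ligand site and a full kinase, was near 0 throughout. It had 112 tested UMIs in all barcodes of both libraries. By the mean of the libraries its highest level was in undivided glia, with 2.84 and 4.11 CPM, while Shox2-rich neurons had 3.37 CPM from 2 UMIs in library 1 and 0 in library 2, and neighbouring populations in its order overlapped in 14 of 15 pairs. Myelinating Schwann cells, pericytes or smooth muscle cells, lymphatic endothelial, mast and T or NK cells had no tested UMI of Erbb4.

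**Figure D4:**
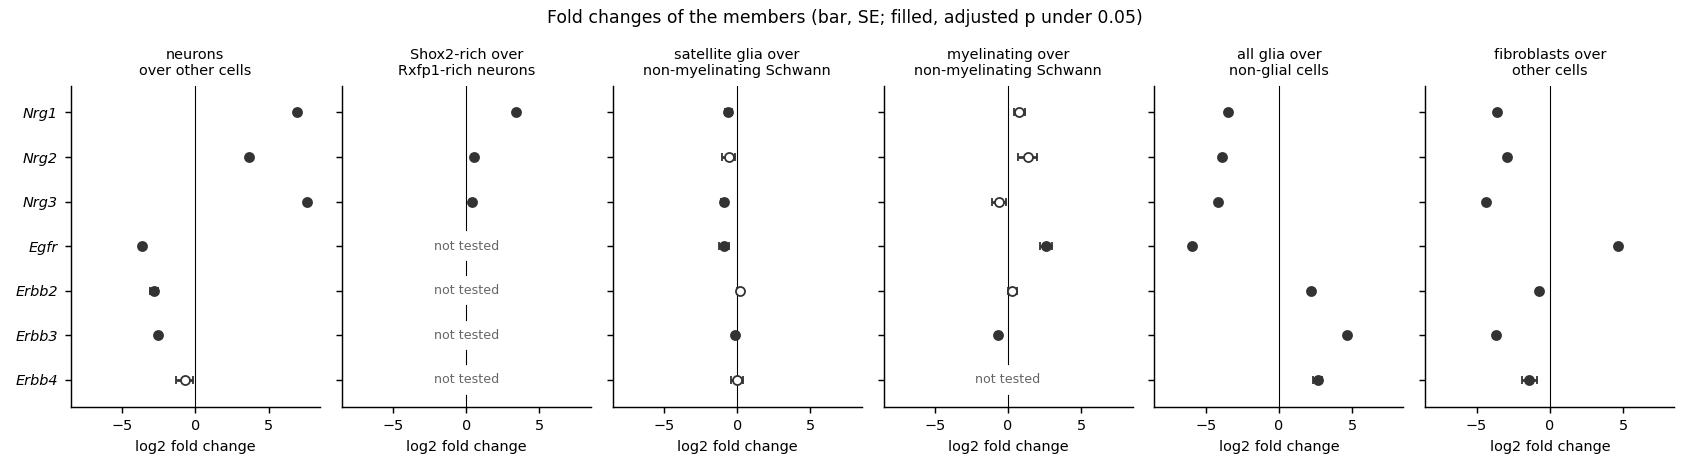
Log2 fold changes of the 7 genes (horizontal axis) in 6 comparisons, each named with the population on top first, with bars for the SE; filled points had an adjusted p under 0.05. Nrg1 and Nrg3 are at 6.93 and 7.64 in neurons over other cells, Erbb3 is at 4.67 in glia over non-glial cells and Egfr at 4.67 in fibroblasts over other cells.

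Egfr was the receptor gene of connective tissue. It had 721 and 813 CPM in fibroblasts, against 39.8 and 35.6 CPM in other cells, a log2 fold change of 4.67 (SE 0.0658, edgeR adjusted p = 9.78e-21). With 1 fit over all classes, in which other cells are the mean of their classes, it was 5.98. The remaining 6 genes were lower in fibroblasts, from -0.74 for Erbb2 to -4.39 for Nrg3, and the comparison called 69.1% of all genes, 33.5% higher and 35.7% lower. Of all calls 48.4% were higher, and 27.3% with scaling by library totals. With DESeq2, Erbb2 (adjusted p = 0.0543) and Erbb4 (adjusted p = 0.310) did not pass, and with thinned cells Erbb4 did not (edgeR adjusted p = 0.0522). Perineurial or epineurial cells, which form the nerve sheath, came second in Egfr with 250.3 and 249.9 CPM. Pericytes or smooth muscle cells had 70.4 and 67.0 CPM and macrophages 52.5 and 55.8 CPM, and none of these neighbours overlapped.

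Egfr also varied within classes. The 451 fibroblasts of a cluster led by Fat3, with Egfr and its antisense gene Egfros among the leading genes, had 1590 and 1547 CPM and a median of 3420 UMIs per cell. Their Malat1 level was 88121 and 95772 CPM, against 41029.6 and 42746 CPM in the largest fibroblast cluster, where Egfr was 615 and 700.5 CPM. Mural cells led by Abcc9, Rgs5 and Kcnj8 had 157 and 144.5 CPM of Egfr, and those led by Acta2, Myh11 and Tagln had 23.9 and 20.995 CPM. The macrophages led by Cd209f, Folr2 and Lyve1 had 423 and 531 CPM, against 32.2 and 27.2 CPM in the larger macrophage cluster. Pdgfra, a fibroblast marker, was 4.23 and 0 CPM in those macrophages, against 556 and 542 CPM in fibroblasts. The libraries gave the same order in each of these splits, which are descriptions with no test, since the clusters were formed on the same cells.

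**Figure D5:**
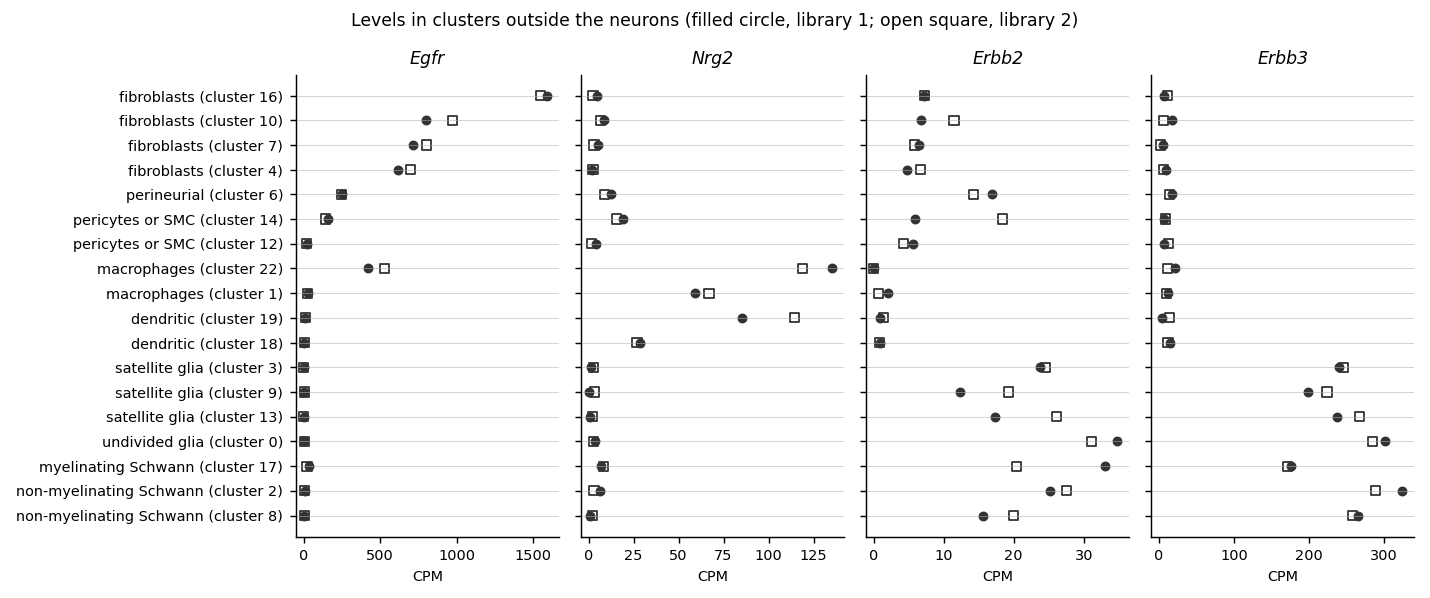
Levels (horizontal axis, CPM, linear) of Egfr, Nrg2, Erbb2 and Erbb3 in 18 clusters of glia, connective tissue, mural cells, macrophages and dendritic cells (rows), with a filled circle for library 1 and an open square for library 2; SMC means smooth muscle cells. Egfr reaches 1590 and 1547 CPM in fibroblast cluster 16 and 423 and 531 CPM in macrophage cluster 22, and among these clusters Erbb3 stands above 150 CPM in the glial ones.

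Egfr and Erbb2, which can pair with each other, were both detected in 82 of 731 and 57 of 633 perineurial or epineurial cells, which is 11.2% and 9.005%. In fibroblasts they were both detected in 4.53% and 5.99% of cells, in satellite glia in 0.427% and 0.625%. At least 1 Egfr UMI was seen in 91.7% and 92.2% of fibroblasts, against 2.19% and 1.88% of satellite glia, whose median depth was similar. In perineurial or epineurial cells Egfr was seen in 68.7% and 66.5% of cells and Erbb2 in 14.8% and 10.9%. Whether Egfr and Erbb2 met in more cells than independent detection would give was not tested.

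Other genes of the pathway, a list of 46, were followed in the same fits. In neurons against other cells, 16 were higher, 19 lower and 8 not separated of 43 tested, where 31.9% of all genes were higher and 36.8% lower. The median log2 fold change was -0.24, against -0.09 over all genes. Nrg4, a further neuregulin that binds ErbB4, led the higher genes with 23.96 ± 2.94 CPM in neurons and 0.899 ± 0.0210 CPM in other cells (SD, n = 2 each), a log2 fold change of 4.598 (SE 0.217, edgeR adjusted p = 1.30e-06). Egf, a ligand of Egfr, was higher at 1.59, with 2.46 and 6.51 CPM in neurons, against 1.30 and 1.36 CPM in other cells, so that library 2 carries most of this value. Pou3f1 and Egr2, transcription factors of the myelin programme, and Lrig3 were lowest in neurons, at -4.85, -3.64 and -3.25.

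Between Shox2-rich and Rxfp1-rich neurons no gene of the list was higher, 3 were lower and 28 did not pass of 31 tested, which is near the 11.4% called over all genes. The median was -0.12, against 0.01 over all genes. Among them were Jun (log2 fold change -1.09), a transcription factor of the stress response, and Adam19 (-0.80), a protease that can cut Nrg1 in mouse cells. Jun averaged 49.4 ± 30.2 CPM in Shox2-rich neurons, against 100.007 ± 14.9 CPM in Rxfp1-rich neurons (SD, n = 2 each). The other proteases tested, Adam10, Adam17 and Bace1, did not pass.

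In satellite glia against non-myelinating Schwann cells, 9 were higher, 12 lower and 19 not separated of 40 tested, where 43.5% of all genes were called (median -0.13, against -0.01 over all genes). Spry4, an inhibitor of receptor signalling, and Map2k2, a kinase, were 0.60 and 0.44 higher, while Pou3f1 (-2.82), Egr2 (-2.36) and Btc (-1.82), a ligand of Egfr and ErbB4, were lowest. In myelinating against non-myelinating Schwann cells, 12 were higher, 9 lower and 19 not separated of 40, where 11.2% of all genes were higher and 10.2% lower (median 0.30, against -0.01 over all genes). All 6 Schwann cell genes known downstream of ErbB2 and ErbB3 were higher there, led by Pou3f1 (5.69) and Egr2 (4.31). Pou3f1 averaged 749 ± 65.6 CPM in myelinating cells and 14.4 ± 4.75 CPM in non-myelinating cells (SD, n = 2 each). Of the other ErbB ligands, Tgfa was 1.96 lower and Btc had no tested UMI in myelinating cells against 9.89 ± 2.04 CPM in non-myelinating cells (SD, n = 2 each, edgeR adjusted p = 0.00816), and Spry2, an inhibitor of receptor signalling, was 2.13 lower.

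Over all glia against non-glial cells, 21 genes of the list were higher, 16 lower and 6 not separated of 43, where 38.4% of all genes were higher and 39.1% lower (median 0.05, against -0.00133 over all genes). Pou3f1 and Pmp22, a myelin protein gene, were among the highest at 3.06 and 2.31, and Spry1 (-4.36) and Errfi1 (-3.86) were among the lowest, with Areg, an Egfr ligand that had 1 UMI per library in glia, against 37 and 102 in non-glial cells. In fibroblasts against other cells, 19 were higher, 19 lower and 5 not separated of 43, where 33.5% of all genes were higher and 35.7% lower (median 0.05, against -0.03 over all genes). The 3 largest rises in fibroblasts were of feedback inhibitors of receptor signalling. Errfi1, which binds and inhibits Egfr, was 2.90 higher (SE 0.0504), with 412 ± 0.164 CPM in fibroblasts and 69.1 ± 2.55 CPM in other cells (SD, n = 2 each). Spry1 and Spry2 were 2.42 and 2.02 higher. Hbegf, a ligand of Egfr, was lower, at -2.88 with 8.22 ± 0.161 CPM in fibroblasts and 75.7 ± 4.76 CPM in other cells (SD, n = 2 each).

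For each gene, the genes with the most similar levels across the 16 populations were sought by Pearson's r of log2(CPM + 1) averaged over the libraries, among 12555 genes reaching 20 CPM. The populations share their libraries and differ in depth, so r is a description. Nrg3 was most like Cadps (0.997), Snhg11 (0.997) and Rgs7 (0.995), and Nrg1 most like Jakmip2 (0.976), Miat (0.970) and B3gat1 (0.967). Nrg2 was less closely matched, with Polb (0.943), Trim36 (0.931) and Map3k9 (0.920). Erbb3 was most like Plxnb3 (0.994), Kcna2 (0.991) and Pou3f2 (0.982), and Egfr most like Nnmt (0.946), Gpc3 (0.933) and Vit (0.920). For Erbb2 the 3 were Alg14 (0.948), Ephb3 (0.937) and Col12a1 (0.928), and for Erbb4, with its few UMIs, Ccdc60 (0.907), Gm47710 (0.885) and Gm4221 (0.869).

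Overlapping antisense genes limit the results on Nrg2, Nrg3 and Egfr. Of 3 antisense genes of Nrg3 in the tables, Gm20642 had 931 tested UMIs, Nrg3os 806 and Gm20641 22, beside 13703 of Nrg3, and 4930471G03Rik had 21 beside 2572 of Nrg2. Nrg3os, inside Nrg3 on the other strand, had 128 and 130 CPM in neurons, against 0.0737 and 0.0988 CPM in other cells. Egfros, inside Egfr on the other strand, had 11.95 and 11.8 CPM in fibroblasts, against 0.976 and 0.951 CPM in other cells. Without knowledge of strand use, reads of these genes and of their partners cannot be told apart.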

How the data were processed

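Single-cell RNA counts of 2 libraries were used. Per the submitters' processing notes, Cell Ranger 6.1.2 and mm10 were used. The sources used here do not state the annotation, strand use or intron counting. The deposited tables hold UMI counts per gene and cell barcode, which the authors did not normalize, as their values are whole numbers with totals that differ between barcodes. Library 1 held 94521010 UMIs and library 2 held 95235439.

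Barcodes needed 500 genes, 1000 UMIs and a mitochondrial share under 20%, and Scrublet doublets (561 and 638) were removed. UMIs were split at random (probability 0.5): one set formed clusters (scanpy 1.11.5, 3000 variable genes, 30 components, 15 neighbours, Leiden resolution 1, and 0.8 for neurons), and the other gave levels and tests. Shares, joint detection and values per neuron used all UMIs. Margins of 0.25, which part satellite glia from Schwann cells and Shox2-rich from Rxfp1-rich neurons, and the median of 5000 UMIs asked of those neuron clusters, were set after the clusters were seen. Members, markers and lists were chosen with earlier results of these data known.

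UMIs were summed per population and library and tested with edgeR 4.0.16 (quasi-likelihood, TMM, its low-count filter, library block, 4 sums and 1 residual degree of freedom per fit), with Benjamini-Hochberg adjustment over all genes at 0.05. The block was used because the populations compared come from the same 2 suspensions. The edgeR fits were tested on simulated data. A limit for a count of 0 is 3 counts and covers counting error only. Named genes were the 7 members, the 3 highest and 3 lowest passing genes of the pathway list per comparison, and the 3 most similar genes per member. Some of these genes are not reported here. Cluster splits and detection shares were described after their values were seen. Alternatives were DESeq2 1.42.0, other scalings and filters, all UMIs, kept doublets, other clusterings, thinned cells, libraries left out and other populations.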

Additional observations from a re-analysis of the deposited data

How the results depend on the processing

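The count of members that passed kept within 1.5 times its main value in 52 of the 65 alternative counts. With 1 fit over all classes, in which the other cells are the mean of their classes and 3 members could be fitted in the broad comparisons, 3 passed in neurons, 3 in glia, 3 in fibroblasts and 1 between satellite glia and non-myelinating Schwann cells. DESeq2 passed 1 between Shox2-rich and Rxfp1-rich neurons and 0 between satellite glia and non-myelinating Schwann cells, where 1 had an unadjusted p under 0.05 and edgeR passed 4. Cells thinned to 1000 UMIs gave 1 in each of these comparisons and 1 between myelinating and non-myelinating Schwann cells, and clusters formed without ErbB genes gave 1 in that last comparison. Between satellite glia and non-myelinating Schwann cells, no low-count filter gave 1, kept doublets 2 and undivided glia counted as satellite glia 2. The cause was not tested in any of these. Nrg1 and Nrg3 reversed in glia against non-glial cells once neurons were left out, both at 0.48. Counting undivided glia on either side was chosen after seeing the data.

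The library is the pairing of the populations, which come from the same suspension. With no replicate block, 6 members passed in neurons, 2 between Shox2-rich and Rxfp1-rich neurons (Nrg3 at an edgeR adjusted p of 0.102 did not), 3 between satellite glia and non-myelinating Schwann cells (Erbb3 at 0.187 did not), 2 between myelinating and non-myelinating Schwann cells, 7 in glia and 7 in fibroblasts. Over all genes, DESeq2 called 252 in place of 991 between Shox2-rich and Rxfp1-rich neurons, 2042 in place of 5861 between satellite glia and non-myelinating Schwann cells, 1227 in place of 2529 between myelinating and non-myelinating Schwann cells, 8690 in place of 13861 in glia and 7558 in place of 12239 in fibroblasts. Thinned cells called 170 in place of 991 between Shox2-rich and Rxfp1-rich neurons and 3786 in place of 5861 between satellite glia and non-myelinating Schwann cells. With 1 fit over all classes, 7285 in place of 12445 were called in neurons, 5513 in place of 13861 in glia and 6552 in place of 12239 in fibroblasts. Counting undivided glia as satellite glia called 3824 in place of 5861, and all UMIs called 3963 in place of 2529 between myelinating and non-myelinating Schwann cells.

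Scaling by library totals moved the median of all genes by -0.32 log2 units in fibroblasts, 0.13 in neurons, -0.12 between satellite glia and non-myelinating Schwann cells and -0.11 in glia. With 1 library there is no test, so leaving one out gives values alone. For single members, 394 alternatives kept direction and call, 34 moved, 27 lost the call and 3 gained it. Erbb4 rested on 112 UMIs in all, and the receptor genes had too few UMIs in Shox2-rich and Rxfp1-rich neurons to be tested.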
